A study of Arabidopsis thaliana with 9 samples.

Results

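The 8 genes described here make and modify triterpenes in Arabidopsis thaliana, and they were taken by their identifiers from the 33977 rows of each gene table. They are the thalianol cluster genes THAS1, THAH and THAD, the marneral cluster genes MRN1, MRO and CYP705A12, and the cyclase genes PEN3 and BARS1. RNA was sequenced from whole seedlings of ecotype Col, 4 days old, grown on MS plates in continuous white light. The groups were wild type (Col), a myb30 mutant and a MYB30 overexpressor (MYB30-OE), with 3 libraries each and 9 in all. The mutant's allele and the promoter that drives MYB30 in the overexpressor are unknown here. The sample descriptions tie each altered genotype to 1 line name, and effects of a line apart from MYB30 were not tested. The authors' deposited tables compare the genotypes in pairs and hold no values of single libraries. Levels below are therefore 1 implied value per genotype, in CPM (reads scaled to a common library total), with no spread between libraries. They rest on an implied 33905536 gene reads per library for Col, 36516306 for the mutant and 32367678 for the overexpressor. Over 3 libraries 1 read is then worth 0.00983 CPM in Col, 0.00913 CPM in the mutant and 0.0103 CPM in the overexpressor.

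Triterpenes are built from squalene that has been oxidised to 2,3-oxidosqualene. Oxidosqualene cyclases fold this chain into sterol precursors or into a range of specialised scaffolds, which cytochrome P450 enzymes and acyltransferases then decorate. In Arabidopsis several of these cyclase genes lie beside the genes of their tailoring enzymes, and such clusters are known for expression in roots and for repressive chromatin elsewhere. The transcription factor MYB30 belongs to the MYB family and is best known from the hypersensitive cell death that pathogens set off.

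MYB30 itself was implied at 32.0 CPM in Col, 4.55 CPM in the mutant and 622 CPM in the overexpressor. Which genotype is the numerator of each deposited fold change was taken from this gene, so it is no check of the labels. All markers of root and leaf had at least 3 implied reads in each genotype. The 7 leaf markers, Rubisco and light harvesting genes, summed to 49030 CPM in Col, 30152 CPM in the mutant and 57611 CPM in the overexpressor. All 7 fell in myb30 and 5 rose in MYB30-OE. The 14 root markers summed to 6990 CPM in Col, 9167 CPM in the mutant and 4888 CPM in the overexpressor, nearly all of it from the ER body glucosidase gene PYK10. Without PYK10 the sums were 187.5, 221 and 198 CPM. Of the root markers 5 rose and none fell in myb30, while 3 rose and 1 fell in MYB30-OE. Over all tested genes 10.8% rose and 10.7% fell in myb30, and 5.99% rose and 5.49% fell in MYB30-OE. In whole seedlings, fewer cells of a type and less RNA per cell cannot be told apart.

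The cyclase genes THAS1, MRN1, BARS1 and PEN3 are relatives, and a stretch of coding sequence around the codons of their catalytic aspartate motif is shown to let the reader judge how alike and how separable they are. The 60 bases were read from the TAIR10.1 genome, 5′ to 3′ on the coding strand with introns removed, and capitals mark the 22 positions at which the 4 genes are not all alike.
THAS1: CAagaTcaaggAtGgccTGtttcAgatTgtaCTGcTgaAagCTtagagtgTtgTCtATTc
BARS1: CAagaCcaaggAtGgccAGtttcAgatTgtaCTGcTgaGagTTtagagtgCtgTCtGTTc
PEN3: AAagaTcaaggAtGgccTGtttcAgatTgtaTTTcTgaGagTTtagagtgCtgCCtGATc
MRN1: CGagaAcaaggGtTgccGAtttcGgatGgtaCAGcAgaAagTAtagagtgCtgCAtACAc
These bases lie within chr5:19459738-19459885 for THAS1 (plus strand), chr4:8775733-8775886 for BARS1 (minus strand), chr5:14221763-14222090 for PEN3 (minus strand) and chr5:17056582-17056736 for MRN1 (plus strand). BARS1 differed from THAS1 at 6 of these positions, PEN3 at 9 and MRN1 at 17. Over their whole coding sequences, THAS1 and BARS1 shared 85.8% of aligned bases, against 78.1% for THAS1 and PEN3 and 76.4% for THAS1 and MRN1. BARS1 shared 86.2% with PEN1, the arabidiol synthase gene of the same chromosome region. CAS1, which makes the sterol precursor cycloartenol, shared 59.6% with THAS1.

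Reads of such relatives could in principle be exchanged. No stretch of 50 bases within an exon of BARS1, THAS1, THAD, MRN1, MRO or CYP705A12 had an exact match elsewhere in the nuclear genome. Stretches across exon junctions were not searched. Of the 50-base stretches of THAH 2.67% did, and of PEN3 0.425%. None of the 8 genes overlaps another gene in the deposited annotation or in RefSeq.

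The windows upstream of THAS1 and MRN1, which were high in MYB30-OE, and of BARS1, which was high in myb30, are printed because these genes stood at opposite ends of the pattern described below. Each holds the 250 bases before the outermost start in the deposited and RefSeq annotations, 5′ to 3′ on the gene's strand (TAIR10.1), and capitals mark matches to the motifs named after them. The RefSeq start is the outer one for 7 of the 8 genes, so their windows end some way upstream of the deposited gene positions printed with the values. For BARS1 the window ends right before the deposited start. All 2280 exon bases of BARS1 are coding as deposited, so that start is where coding begins.
THAS1: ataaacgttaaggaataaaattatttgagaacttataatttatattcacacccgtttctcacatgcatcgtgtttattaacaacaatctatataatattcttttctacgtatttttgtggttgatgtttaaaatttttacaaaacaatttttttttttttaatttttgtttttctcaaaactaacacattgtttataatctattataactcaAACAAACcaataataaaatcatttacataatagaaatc
MRN1: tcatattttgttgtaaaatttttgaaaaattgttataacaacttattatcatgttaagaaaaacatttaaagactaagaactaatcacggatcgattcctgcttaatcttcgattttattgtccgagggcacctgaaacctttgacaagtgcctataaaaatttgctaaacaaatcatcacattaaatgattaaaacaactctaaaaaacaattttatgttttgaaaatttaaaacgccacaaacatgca
BARS1: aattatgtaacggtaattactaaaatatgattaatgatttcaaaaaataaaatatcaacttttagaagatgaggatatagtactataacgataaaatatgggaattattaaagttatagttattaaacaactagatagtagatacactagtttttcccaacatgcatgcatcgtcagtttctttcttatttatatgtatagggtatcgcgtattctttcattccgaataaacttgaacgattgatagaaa
The windows are chr5:19456587-19456836 on the plus strand, chr5:17053203-17053452 on the plus strand and chr4:8779686-8779935 on the minus strand. Runs of letters of the kind that MYB factors bind, and the G-box, were searched on both strands, and no match overlaps another. The run AACAAAC stands once in the THAS1 window, 38 bases before the RefSeq start, which is itself upstream of the deposited one, and in 11.2% of all 27205 coding gene windows. The run ACCAAAC stands once in the THAH window, not shown, on the opposite strand and 218 bases before the RefSeq start, and in 8.3% of all windows. None of the 8 windows holds ACCTACC, present in 1.16% of all windows, or ACCAACC, present in 2.69%. Nor does any hold ACCTAAC, present in 2.48%, or the G-box CACGTG, present in 6.55%. The other 6 genes thus have none of these runs within their windows. The 8 windows are 68.4% to 79.2% A and T, against a median of 68.8% over all.

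Of these genes 7 had a common order of levels, lowest in myb30, intermediate in Col and highest in MYB30-OE, and BARS1 had the reverse order. The genes were chosen with these tables in view, so their values are given as a description. Their calls are counted once, beside the background over all genes, and are no independent test. Against Col in the authors' deposited tables, 7 genes were lower and 1 higher in myb30, with a median log2 fold change of -0.49 (median of all 25713 genes tested 0.01). In MYB30-OE 7 were higher and 1 lower, with a median of 0.86 (0.00 over all 25593 genes). Both comparisons use the same Col libraries.

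**Figure D1:**
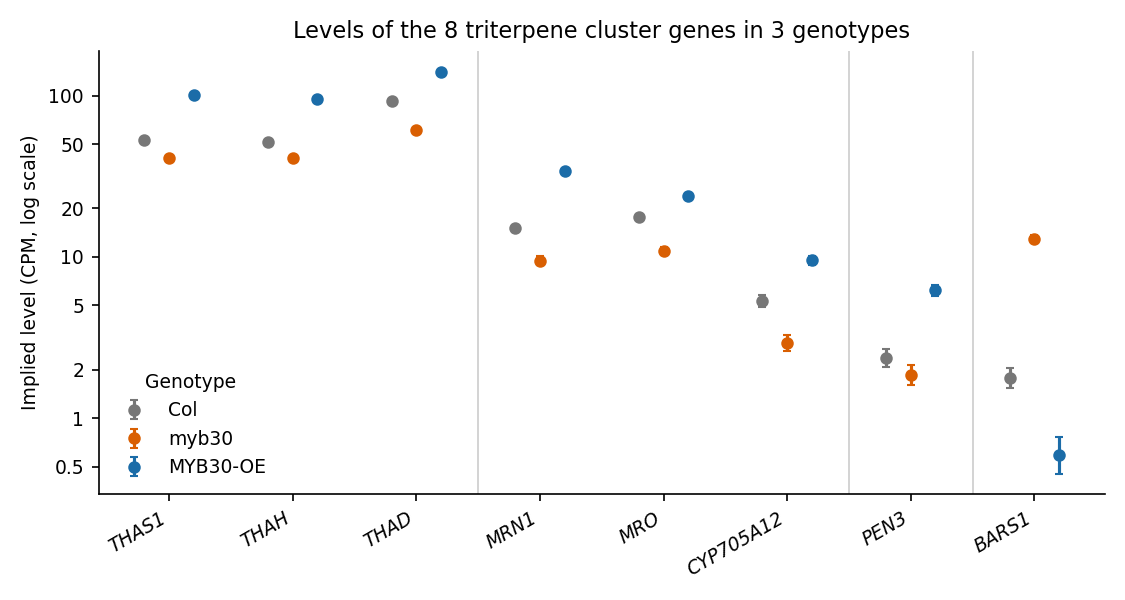
Implied level in CPM (log axis) of the 8 genes in Col, myb30 and MYB30-OE, 1 point per genotype over 3 libraries. Bars are 95% Poisson intervals of the implied reads and cover counting error only. The 7 genes on the left are lowest in myb30 and highest in MYB30-OE, whereas BARS1 runs from 12.98 CPM in myb30 down to 0.594 CPM in MYB30-OE.

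With the p-values of the authors' deposited table adjusted here over all genes with reads and a threshold of 0.05, 4 of the 8 genes were called lower and 1 higher in myb30 against Col, where 10.7% of all tested genes were lower and 10.8% higher. In MYB30-OE against Col 6 were higher and 1 lower, where 5.99% of all genes were higher and 5.49% lower. In MYB30-OE against myb30 7 were higher and 1 lower, where 15.4% of all genes were higher and 16.2% lower. Because the same tables chose the genes, nothing is read from these counts. THAS1, THAH and PEN3 did not pass in myb30 against Col, and MRO did not pass in MYB30-OE against Col.

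THAS1 (AT5G48010, chr5:19456960-19461689, plus strand, 14 exons) encodes thalianol synthase, which opens the thalianol pathway. Its implied level was 53.4 CPM in Col, 41.2 CPM in the mutant and 101 CPM in the overexpressor. Against Col its log2 fold changes were -0.38 in myb30 and 0.93 in MYB30-OE, the latter a 1.90-fold difference, in the authors' deposited tables. THAH (AT5G48000, chr5:19444138-19447850, minus strand, 9 exons) encodes thalianol hydroxylase, the P450 CYP708A2. It stood at 51.7 CPM in Col, 41.1 CPM in the mutant and 95.1 CPM in the overexpressor. THAH followed THAS1 closely, at 1.27-fold lower in myb30 and 1.84-fold higher in MYB30-OE in the authors' deposited tables. THAD (AT5G47990, chr5:19434827-19436689, plus strand, 2 exons) encodes the P450 CYP705A5, which introduces a double bond into the hydroxylated product. Its levels were 93.1 CPM in Col, 61.8 CPM in the mutant and 140.6 CPM in the overexpressor. THAD was 1.52-fold lower in myb30 and 1.51-fold higher in MYB30-OE than in Col by the authors' deposited tables.

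Proportions within the thalianol cluster are given per length of exon. THAH was at 1.20 times the THAS1 level per kilobase in Col, 1.24 times in the mutant and 1.17 times in the overexpressor. For THAD the ratio was 2.46 in Col, 2.12 in the mutant and 1.96 in the overexpressor. The direct comparison of MYB30-OE with myb30 gave log2 fold changes of 1.31 for THAS1, 1.23 for THAH and 1.20 for THAD in the authors' deposited table.

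MRN1 (AT5G42600, chr5:17053517-17058245, plus strand, 14 exons) encodes marneral synthase, which forms the aldehyde marneral from oxidosqualene. It was implied at 15.04 CPM in Col, 9.49 CPM in the mutant and 34.1 CPM in the overexpressor. The authors' deposited tables place it 1.59-fold lower in myb30 and 2.27-fold higher in MYB30-OE than in Col. MRO (AT5G42590, chr5:17031111-17033726, minus strand, 4 exons) encodes marneral oxidase, the P450 CYP71A16. Its levels were 17.8 CPM in Col, 10.8 CPM in the mutant and 23.8 CPM in the overexpressor. MRO showed the least difference of the 8 genes between MYB30-OE and Col, at 1.34-fold, but was 1.65-fold lower in myb30 in the authors' deposited tables. CYP705A12 (AT5G42580, chr5:17023646-17025229, minus strand, 2 exons) is the other P450 gene of the cluster. It was at 5.36 CPM in Col, 2.92 CPM in the mutant and 9.56 CPM in the overexpressor. Among the 7 genes that were lower in myb30 it had the largest difference, 1.84-fold, and it was 1.79-fold higher in MYB30-OE, in the authors' deposited tables.

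In the marneral cluster MRO stood closer to MRN1 in MYB30-OE than in the other genotypes. Per kilobase of exon MRO stood at 1.82 times the MRN1 level in Col and 1.76 times in myb30, but at 1.08 times in MYB30-OE. CYP705A12 stood at 0.619, 0.534 and 0.487 times MRN1 in Col, myb30 and MYB30-OE. Between MYB30-OE and myb30 the log2 fold changes were 1.86 for MRN1, 1.72 for CYP705A12 and 1.15 for MRO in the authors' deposited table.

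PEN3 (AT5G36150, chr5:14220737-14225422, minus strand, 13 exons) encodes a cyclase that forms a tirucallane-type triterpene. It was a low transcript, at 2.35 CPM in Col, 1.85 CPM in the mutant and 6.21 CPM in the overexpressor. It had the largest positive difference of the 8 genes between MYB30-OE and Col, with a log2 fold change of 1.41 in the authors' deposited table. With the libraries of the comparison taken as equal, the read ratio was 2.66. Counting error alone gave it an exact binomial 95% interval of 2.29 to 3.11. For myb30 the ratio of Col to mutant was 1.27 (interval 1.05 to 1.54).

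BARS1 (AT4G15370, chr4:8773786-8779685, minus strand, 14 exons) encodes baruol synthase, whose main product is the triterpene baruol. Its level was 1.78 CPM in Col, 12.98 CPM in the mutant and 0.594 CPM in the overexpressor. The authors' deposited tables give log2 fold changes of 2.85 in myb30 and -1.58 in MYB30-OE against Col, and -4.43 for MYB30-OE against myb30. The implied reads were 181 in Col, 1422 in the mutant and 57.7 in the overexpressor. With the libraries of each comparison taken as equal, so not from these reads, the read ratio was 7.24 between myb30 and Col. Its exact binomial interval was 6.22 to 8.48. Between Col and MYB30-OE the ratio was 3.02 (2.23 to 4.13), again for counting error alone.

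**Figure D2:**
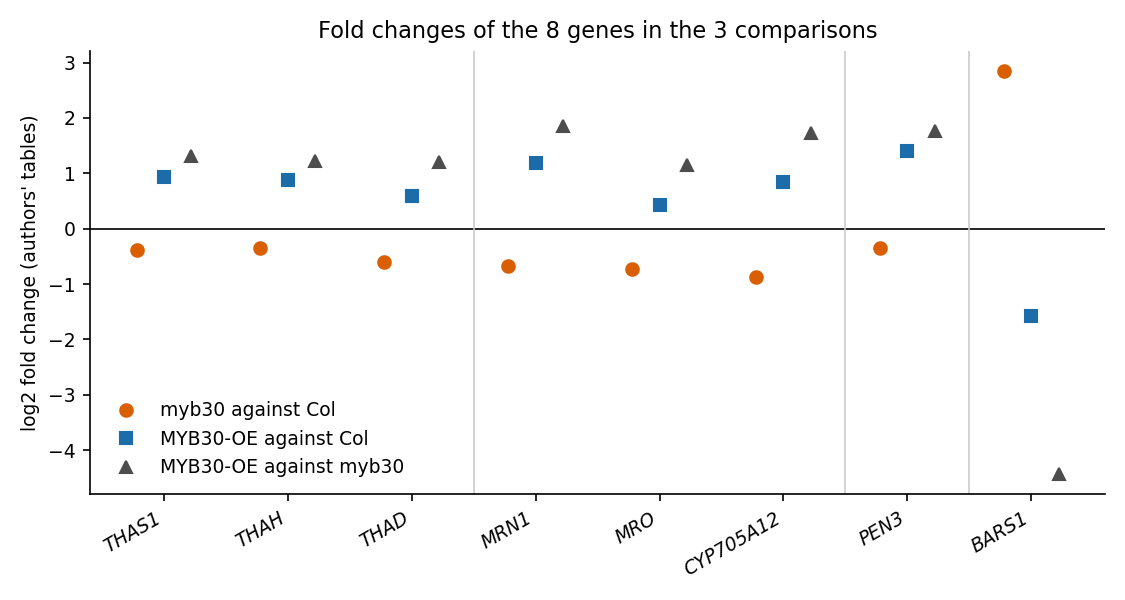
log2 fold changes from the authors' deposited tables for the 8 genes, 1 point for each of the 3 comparisons, grouped into thalianol, marneral, PEN3 and BARS1 by grey lines. BARS1 lies at 2.85 in myb30 and -1.58 in MYB30-OE against Col, and the other 7 genes lie below 0 in myb30 and above 0 in MYB30-OE.

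Set on one scale per kilobase of exon, the order of levels in Col was THAD (52.3 CPM per kilobase), THAH (25.5), THAS1 (21.2), MRO (10.5), MRN1 (5.77), CYP705A12 (3.57), PEN3 (1.03) and BARS1 (0.78). The thalianol genes held the first places in every genotype. BARS1 was last in Col and in MYB30-OE (0.26 CPM per kilobase) but at place 5 in myb30, where its 5.69 CPM per kilobase stood above MRN1 at 3.64. The Poisson intervals of neighbours in these orders did not overlap, though that of BARS1 ended at 0.90 in Col where that of PEN3 began. The spread between libraries is unknown, so whether neighbours differ beyond it was not tested.

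The other genes of the same chromosome regions are not among the 8, so their calls are given, with the authors' p-values adjusted by Benjamini-Hochberg in the same way. Of 14 further tailoring genes of these clusters 4 rose and 1 fell in myb30 (median log2 fold change 0.32) in the authors' deposited tables. In MYB30-OE 5 rose and 2 fell against Col (median 0.10), and 3 rose and 4 fell against myb30 (median -0.16). Over all tested genes 10.8% rose and 10.7% fell in myb30 against Col. In MYB30-OE 5.99% of all rose and 5.49% fell against Col, and 15.4% rose and 16.2% fell against myb30. The thalianol region, chr5:19417031-19461689, holds the acyltransferase genes THAA1 and THAA2. THAA1 (AT5G47980), which is next to THAD, was implied at 14.0 CPM in Col, 12.0 CPM in the mutant and 25.9 CPM in the overexpressor. It rose 1.86-fold in MYB30-OE in the authors' deposited table (adjusted p = 2.26e-05) and did not pass in myb30 (log2 fold change -0.23, adjusted p = 0.535). THAA2 (AT5G47950), at the far end of the region, rose 1.46-fold in myb30 (adjusted p = 0.027) and 1.46-fold in MYB30-OE (adjusted p = 0.0183) in the authors' deposited tables. RABA4C and AT5G47970, which lie between THAA2 and THAA1 and are not known as triterpene genes, did not pass against Col in either line.

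In the PEN3 region, chr5:14195377-14242135, CYP716A2 and AT5G36130, the P450 genes nearest to PEN3, rose in MYB30-OE, and CYP716A1, farther out on the same side, did not pass there. CYP716A2 (AT5G36140) was at 0.67 CPM in Col, 0.28 CPM in the mutant and 2.04 CPM in the overexpressor. It rose 3.07-fold in MYB30-OE (adjusted p = 0.000909) and was 2.36-fold lower in myb30 without passing (adjusted p = 0.0678) in the authors' deposited tables. AT5G36130, a P450-family gene beside CYP716A2, rose 2.16-fold in MYB30-OE (adjusted p = 0.0248) and fell 2.62-fold in myb30 (adjusted p = 0.0417) in the authors' deposited tables. Its levels were 0.698 CPM in Col, 0.262 CPM in the mutant and 1.49 CPM in the overexpressor. As annotated, AT5G36130 has 423 exon bases and CYP716A2 957, against 1434 for CYP716A1. AT5G36130 and CYP716A2 are on the same strand, and whether they are parts of the same gene was not tested. SCPL1 (AT5G36180), a serine carboxypeptidase-like gene at the edge of the region, had 26.7 CPM in Col, 14.9 CPM in the mutant and 35.2 CPM in the overexpressor. It fell 1.81-fold in myb30 (adjusted p = 8.8e-07) and rose 1.32-fold in MYB30-OE (adjusted p = 0.00814) by the authors' deposited tables. CYP716A1 (AT5G36110), a P450 gene known to oxidise triterpenes, rose 1.90-fold in myb30 (adjusted p = 0.0343) in the authors' deposited table and did not pass in MYB30-OE (log2 fold change -0.05). HCF109, a plastid release factor gene inside the region, fell 1.27-fold in myb30 (adjusted p = 0.0151) in the authors' deposited table.

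BARS1 lies in a region of chromosome 4, chr4:8730723-8810512, that also holds the arabidiol genes. Of the genes between BARS1 and PEN1 both rose in myb30. CYP705A2 (AT4G15350) was at 0.884 CPM in Col, 3.42 CPM in the mutant and 0.904 CPM in the overexpressor. It rose 3.78-fold in myb30 (adjusted p = 1.1e-11) and did not pass in MYB30-OE (log2 fold change 0.03) in the authors' deposited tables. CYP705A3 (AT4G15360), directly beside BARS1, had about 2 implied reads in Col and 34 in myb30, and it rose in the authors' deposited table (adjusted p = 0.0262). With libraries taken as equal, counting error alone put the read ratio of 16.5 between 4.22 and 142 (exact binomial). No read of CYP705A3 was implied in MYB30-OE.

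Apart from CSLB06, described last, the other genes of that region did not pass in myb30. PEN1, the arabidiol synthase gene, had 11.5 CPM in Col, 11.7 CPM in the mutant and 12.8 CPM in the overexpressor, with log2 fold changes of 0.01 and 0.16 against Col in the authors' deposited tables that did not pass in either line. CYP705A1, whose enzyme cleaves arabidiol, was at 6.66, 7.17 and 6.46 CPM in that order and did not pass. On the other side, CYP705A4 did not pass in either line (log2 fold changes 0.01 and -0.18), nor did CYP702A2 (0.57 and 0.17) or CYP702A3 (1.04 and 1.24, on at most 5 reads) at the other end. The acyltransferase gene AT4G15390 fell 1.72-fold in MYB30-OE (adjusted p = 9.82e-07), and CYP702A5 fell 1.84-fold (adjusted p = 0.0222), by the authors' deposited table. CYP702A6 rose 3.11-fold in MYB30-OE (adjusted p = 0.00725) from 0.345 CPM in Col, by the authors' deposited table. The cellulose synthase-like gene CSLB06, which lies inside the region, fell 4.99-fold in myb30 (adjusted p = 0.00391), and its relative CSLB05 just outside it fell 3.24-fold (adjusted p = 3.63e-09), by the authors' deposited table.

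**Figure D3:**
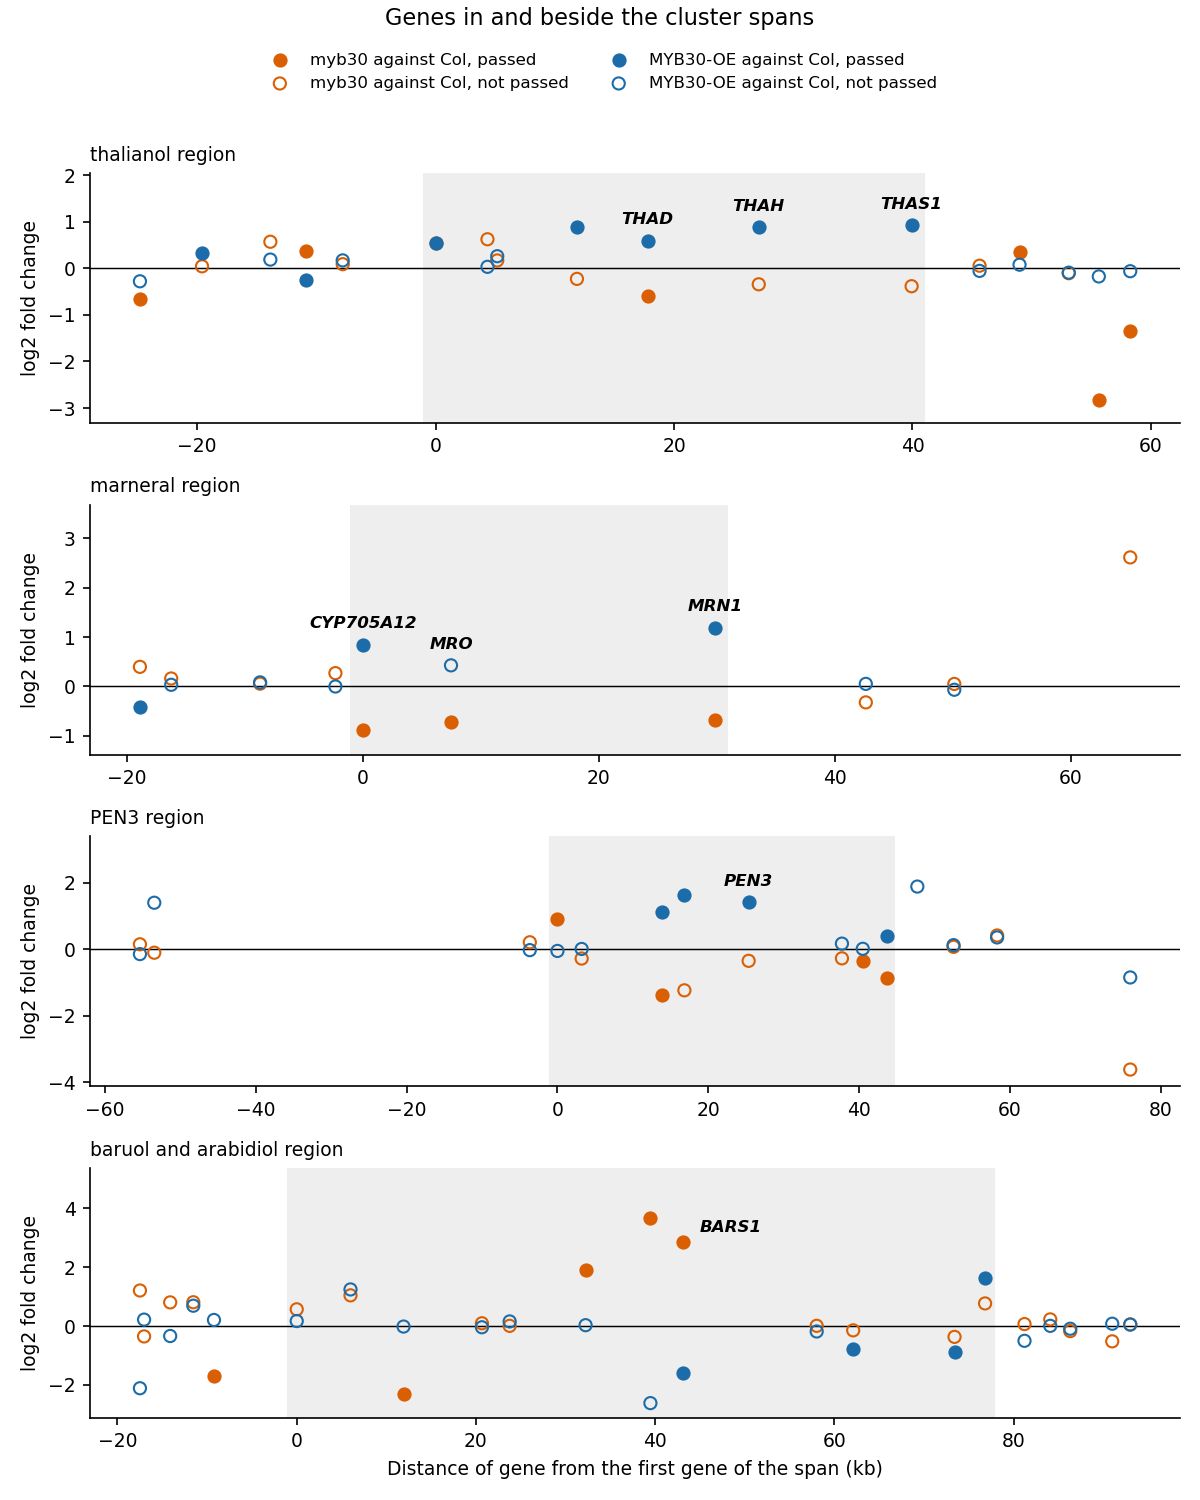
log2 fold change against Col (authors' deposited tables) of measured genes in the 4 regions and the 5 genes on each side, by distance in kb from the first gene of the span, which is shaded. Orange is myb30 and blue MYB30-OE, and filled points have an adjusted p under 0.05. In the thalianol and PEN3 regions the blue points of several adjacent genes lie above 0, and in the baruol region the orange points of BARS1, CYP705A2 and CYP705A3 stand above 1.9.

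Most of the flanking genes did not pass. Of 40 genes flanking the 4 regions, 33 were measured in the authors' deposited table of myb30 against Col, and 2 rose and 4 fell, with a median log2 fold change of 0.07. In MYB30-OE 1 of 33 rose and 2 fell, with a median of 0.01. Of all tested genes 10.8% rose and 10.7% fell in myb30, and 5.99% rose and 5.49% fell in MYB30-OE. Nothing is read from the counts of flanking genes. On the THAS1 side AT5G48050, a retrotransposon-like gene, fell 7.05-fold in myb30 (adjusted p = 1.21e-05) in the authors' deposited table, from 0.515 to 0.0684 CPM. AT5G48060, a C2-domain gene, fell 2.53-fold (adjusted p = 0.000601) there by the authors' deposited table. AT5G47900, at the other end of that region, fell 1.58-fold in myb30 (adjusted p = 0.00962), and GFA2 rose 1.27-fold (adjusted p = 0.0252), in the authors' deposited table. AT5G47930, a ribosomal protein gene, rose 1.29-fold in myb30 (adjusted p = 0.00812) and fell 1.20-fold in MYB30-OE (adjusted p = 0.0177) by the authors' deposited tables. RBOHD, an NADPH oxidase gene, rose 1.25-fold in MYB30-OE (adjusted p = 0.0106), and AT5G42530 beside the marneral region fell 1.33-fold (adjusted p = 0.0286), in the authors' deposited table. AT5G48020, the gene next to THAS1, did not pass in either line (log2 fold changes 0.06 and -0.05).

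A further 9 oxidosqualene cyclase genes were looked at, of which 8 had reads and LUP5 had none. In the authors' deposited table of myb30 against Col 1 rose and none fell, with a median log2 fold change of -0.22. In MYB30-OE against Col 2 rose and 1 fell, with a median of 0.15. The shares over all tested genes were 10.8% risen and 10.7% fallen in myb30, and 5.99% and 5.49% in MYB30-OE. The gene that rose in myb30 was PEN6 (AT1G78500, chromosome 1), from about 3 implied reads in Col to 163 (adjusted p = 1.28e-11 from the authors' deposited table). With libraries taken as equal, counting error alone put the read ratio of 52.7 between 17.7 and 258 (exact binomial). PEN6 also rose in MYB30-OE, to about 23 reads (adjusted p = 0.00986), and it was 6.09-fold lower there than in myb30 (adjusted p = 9.59e-06), by the authors' deposited tables. It overlaps the gene AT1G78510 in RefSeq, and whether the libraries keep strand is not given, so some of its reads may belong to that gene. CAMS1, the camelliol synthase gene, rose 1.86-fold in MYB30-OE (adjusted p = 0.0471), and LUP1, a lupeol synthase gene, fell by 0.38 on the log2 scale (adjusted p = 0.00214), by the authors' deposited table. CAS1, the sterol-forming cyclase gene, did not pass against Col in myb30 (log2 fold change -0.17) or in MYB30-OE (0.14). It rose by 0.31 in MYB30-OE against myb30 (adjusted p = 0.033) in the authors' deposited table. In that comparison 2 of the 8 rose and 1 fell, with a median of 0.17, where 15.4% of all tested genes rose and 16.2% fell.

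Of the genes that supply oxidosqualene most did not pass. Of 21 mevalonate and squalene genes, 2 fell and none rose in myb30 in the authors' deposited table, with a median log2 fold change of 0.01. By the authors' table these were SQS2, a squalene synthase copy, at 1.55-fold lower (adjusted p = 0.000515) and FPS1, farnesyl diphosphate synthase, at 1.26-fold lower (adjusted p = 0.0111). In MYB30-OE 2 rose and none fell, with a median of 0.03. Among all tested genes 10.8% rose and 10.7% fell in myb30, and 5.99% rose and 5.49% fell in MYB30-OE. SQE4, a squalene epoxidase-family gene, rose 2.12-fold (adjusted p = 0.000327 in the authors' deposited table) from 10.7 to 22.7 CPM. HMG1, which encodes the main HMG-CoA reductase, rose 1.35-fold (adjusted p = 1.03e-08 in the authors' deposited table) from 273 to 367 CPM. Between MYB30-OE and myb30, where 15.4% of all tested genes rose and 16.2% fell, 4 rose and none fell. By the authors' deposited table they were HMG1 (1.64-fold, adjusted p = 1.61e-08), the HMG-CoA synthase gene HMGS (1.38-fold, adjusted p = 0.000166), SQE4 (1.37-fold, adjusted p = 0.0449) and FPS1 (1.24-fold, adjusted p = 0.00944).

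Among genes of the sterol branch after cyclisation the calls fell on sterol methyltransferases. Of 9 sterol genes 1 fell in myb30, SMT1 by 1.28-fold (adjusted p = 0.0104), and 2 rose in MYB30-OE, SMT2 (adjusted p = 0.0263) and SMT3 (adjusted p = 0.0481), each by 1.16-fold in the authors' deposited tables. The list medians were -0.04 in myb30 and 0.14 in MYB30-OE. Over all tested genes 10.8% rose and 10.7% fell in myb30 against Col, and 5.99% and 5.49% in MYB30-OE against Col. For MYB30-OE against myb30 these shares were 15.4% and 16.2%. Between MYB30-OE and myb30 3 of the 9 rose and none fell, SMT1 by 0.51, SMT3 by 0.44 and SMT2 by 0.38 on the log2 scale in the authors' deposited table. Of 12 chromatin genes known for H2A.Z deposition or Polycomb repression, including those studied at these clusters, 1 rose in each line. It was ARP6, a subunit of the H2A.Z-depositing SWR complex, at 1.33-fold in myb30 (adjusted p = 0.00735) and 1.37-fold in MYB30-OE (adjusted p = 0.000169) by the authors' deposited tables. None of the 12 passed between MYB30-OE and myb30.

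**Figure D4:**
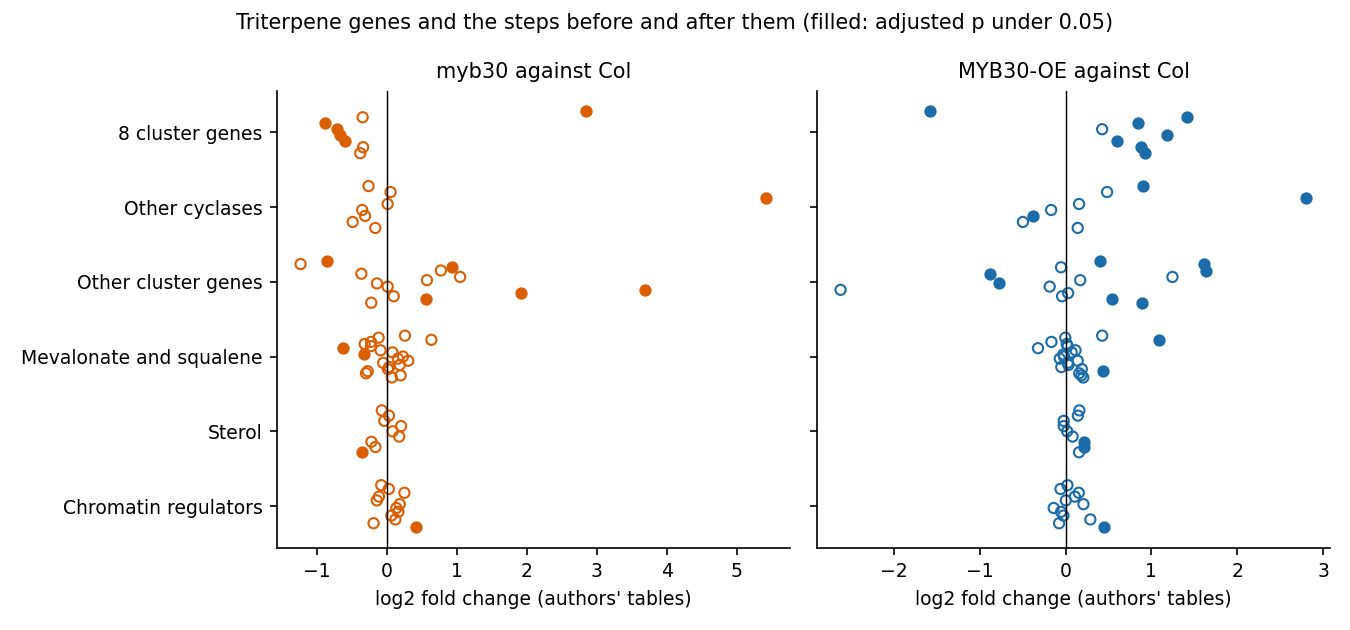
log2 fold changes against Col (authors' deposited tables) of the 8 cluster genes and 5 related lists, in myb30 on the left and MYB30-OE on the right. Each point is a gene, filled where the adjusted p is under 0.05 and spread vertically for legibility only. The chromatin points lie between -0.19 and 0.45, the highest mevalonate point is SQE4 at 1.09 in MYB30-OE, and PEN6 at 5.42 in myb30 and 2.81 in MYB30-OE stands apart among the other cyclases.

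The leaf marker medians had the same signs as the differences of the 7 genes, at -0.71 in myb30 and 0.30 in MYB30-OE in the authors' deposited tables, and their part in the levels of the 7 genes was not tested. The root marker medians were 0.26 and -0.02. In myb30 the root markers that rose were EXPA7 (log2 fold change 1.24), RHD6 (0.56), PIN2 (0.47), COBL9 (0.47) and PYK10 (0.38) in the authors' deposited table. In MYB30-OE EXPA7 (0.60), COBL9 (0.48) and PIN2 (0.33) rose as well, and PYK10 fell (-0.53), in the authors' deposited table. The part of root tissue in the levels of the 8 genes was not tested.

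Over 18652 genes averaging 1 CPM or more and read in every genotype, likeness to THAS1 and to MRN1 was measured as the Euclidean distance between log2 levels centred over the 3 genotypes. The nearest to THAS1 outside the 8 genes were CRK10, a receptor-like kinase gene (distance 0.036), AT4G34150, a lipid-binding C2-domain gene (0.048), FAR4, a fatty acid reductase gene (0.051), AT2G15880, a leucine-rich repeat gene (0.06), and NAMT1, a methyltransferase gene (0.069). THAH was at place 4 at 0.06 and THAD was at place 94. The nearest to MRN1 were CDT1, the cadmium tolerance gene (0.0094), WRKY33, a defence WRKY factor gene (0.057), AT2G25150, an acyltransferase-family gene (0.061), AT4G24140, a hydrolase-family gene (0.082), and AT1G22890 (0.091). PEN3 was at place 30 and CYP705A12 at place 40 for MRN1, while MRO was at place 380. BARS1 was at place 18639 from THAS1 and 18641 from MRN1. With 3 genotypes, likeness rests on few values, and these genes were selected by it.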

How the data were processed

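Per the submitters' processing notes, TopHat, Cufflinks, Cuffdiff and TAIR10 are named, without versions. For each pair of genotypes the authors' deposited tables list, per the file headers, every gene's log2 fold change, its mean level as log2 CPM and a p-value, without adjustment. Which of these tools, or another, computed these columns is unknown here. Genotypes were tied to tables through the labels' sample descriptions.

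The p-values were adjusted here by Benjamini-Hochberg over all genes with reads, and 0.05 was the threshold. Genes without reads, 24.3% to 24.7% of rows, are those at the lowest mean log2 CPM. Implied CPM and reads were solved from fold change and mean level, assuming equal libraries and added counts of 2 in the average and 0.125 in the fold change, and averaged over the 2 tables of each genotype. The derivation was run on simulated data made with the same added counts and equal libraries. That run checks the arithmetic only and cannot show whether the deposited tables rest on these assumptions. The tables differed in Col levels by a median factor of 1.02. Nothing in the labels says whether replicate libraries are separate cultures, so the spread behind the p-values may be technical. Each deposited table compares 2 genotypes, and the libraries over which that spread was taken are unknown here. Intervals (95%) cover counting error only.

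The deposited annotation (TAIR10) gave positions, and 99.96% of its 35176 coding transcripts start with ATG in the RefSeq TAIR10.1 genome, which gave sequences. The 8 genes, the lists and the motifs were chosen with earlier results of these data known. Named genes are the 8 genes, passing genes in or beside the regions, up to 4 passing genes of each list per comparison, and the 5 nearest genes to THAS1 and MRN1. Some further genes were named after their values were seen. The transposable element tables were not used. Python 3.11.15, numpy 2.4.6, pandas 2.3.3, scipy 1.17.1, Biopython 1.88 and matplotlib 3.10.9 were used.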

Additional observations from a re-analysis of the deposited data

How the results depend on the processing

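Alternatives were run for the log2 fold changes of the 8 genes and for the number of 65 related genes outside them that passed. Centring on the median of genes at 1 CPM or more moved all fold changes of the 8 genes by less than their counting intervals. A pseudocount of 1 CPM moved 7 of 24 beyond them, with no change of sign. BARS1 went to 2.32 in myb30 against Col, -0.80 in MYB30-OE against Col and -3.13 between MYB30-OE and myb30. PEN3 went to 1.11 in MYB30-OE against Col and 1.35 between MYB30-OE and myb30, and MRN1 (1.76) and CYP705A12 (1.44) moved in the last comparison. The number of related genes passing in myb30 against Col was 10, and 5 at an adjusted p of 0.01, 3 at a minimum 2-fold change and 3 with Bonferroni adjustment. In MYB30-OE against Col it was 15, and 4 at 2-fold and 3 with Bonferroni. Between MYB30-OE and myb30 it was 17, and 7 at 2-fold and 7 with Bonferroni. These settings are stricter by construction. Among genes at 1 CPM or more, 3 rose and 5 fell in myb30, against 6 and 4 over all. No paired analysis was possible because the tables hold no values of single libraries, and leaving out replicates was not run for the same reason. Of the implied CPM values of the 8 genes none moved by more than 0.437% without the added count in the fold change. The added count of 2 in the average and the assumption of equal libraries were not varied. At about 0.01 CPM per read, PEN6 and CYP705A3 in Col rest on about 3 reads or fewer.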
